A study of Mus musculus with 6 samples.

Results

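The BCL2 family decides whether the outer membrane of the mitochondrion stays closed or is opened during apoptosis, and its transcripts were described here in mouse fibrosarcoma cells with and without an shRNA against Rras2. The members were 10 gene symbols, namely Bcl2, Bcl2l1, Mcl1, Bax, Bak1, Bcl2l11, Bid, Bad, Bbc3 and Pmaip1. They were chosen by name, with earlier results of these data known. Of these, 9 were measured, each by 1 probe set, among 19505 genes in all, and Bax was not analysed here. All 6 arrays came from Rras2(Q72L) fibrosarcoma cells of C57BL/6 background, in which the GTPase gene Rras2, a relative of the RAS genes, carries the Q72L change, and all 6 samples were transduced with a lentiviral vector. The control cells, pLKO, received it empty (replicates 1 to 3), and the knockdown cells, shRras2, received it with the Rras2-directed shRNA sh#89 (replicates 4 to 6). There was therefore 1 shRNA, and effects on other targets cannot be told apart from those of lower Rras2. The labels do not say whether replicates were separate cultures, and p-values then cover the spread of these samples alone, which may be technical.

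The family works through 3 kinds of protein. BCL2, BCL-XL (the main product of Bcl2l1) and MCL1 hold the membrane closed. BAX and BAK (the product of Bak1) form the pores through which cytochrome c leaves. The BH3-only proteins BIM (Bcl2l11), BID, BAD, PUMA (Bbc3) and NOXA (Pmaip1) carry death signals to the other members. Signalling from RAS through ERK and AKT is known to restrain BIM and BAD, and FOXO transcription factors are known to activate Bcl2l11 and Bbc3. Much of this control acts on the proteins, which the arrays do not measure.

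Promoters are printed for the members that changed and for Bbc3, which did not pass but holds the same marked letters as Bcl2l11. The windows and the letters to mark were picked by hand, and a link of letters to changes was not tested. Each printed window is the 250 bases before an annotated transcription start in RefSeq (GRCm38.p6), 5′ to 3′ on the gene's strand. Capitals mark the FOXO core, GTAAACA on either strand (TGTTTAC read from the other one), in Bcl2l11 (chr2:128125788-128126037, plus strand) and Bbc3 (chr7:16310011-16310260, plus strand, the second of 3 annotated starts). In Bcl2 (chr1:106714291-106714540, minus strand) they mark TGACGT, the first 6 bases of a cAMP response element.
Bcl2l11: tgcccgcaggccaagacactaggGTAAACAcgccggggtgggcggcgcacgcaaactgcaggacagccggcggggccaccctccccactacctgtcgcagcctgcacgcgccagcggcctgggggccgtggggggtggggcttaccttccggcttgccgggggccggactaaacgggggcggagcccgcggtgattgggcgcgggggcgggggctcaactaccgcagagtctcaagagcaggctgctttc
Bbc3: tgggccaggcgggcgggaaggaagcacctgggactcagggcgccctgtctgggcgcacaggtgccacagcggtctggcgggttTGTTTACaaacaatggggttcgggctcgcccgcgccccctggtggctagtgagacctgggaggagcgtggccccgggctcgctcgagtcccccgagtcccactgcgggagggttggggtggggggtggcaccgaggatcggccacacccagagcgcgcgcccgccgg
Bcl2: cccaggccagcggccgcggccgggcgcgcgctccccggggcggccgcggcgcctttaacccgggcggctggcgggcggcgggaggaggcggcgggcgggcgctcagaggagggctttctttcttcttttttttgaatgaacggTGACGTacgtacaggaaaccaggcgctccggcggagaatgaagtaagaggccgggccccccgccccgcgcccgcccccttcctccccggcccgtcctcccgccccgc

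The FOXO core begins 227 bases before the start in Bcl2l11 and, on the other strand, 167 bases before it in Bbc3. Of the 32851 annotated windows of this length, 3.17% hold it. The table gave 15 windows for 9 of the 10 members, and the other 13 windows, among them the second one of Bcl2l11, lack these letters. TGACGT occurred in 6.47% of all windows and, among the members, in Bcl2 alone. The GC box GGGCGG, on either strand, was present 7 times in the Bcl2 window and 3 times in the printed window of Bcl2l11, and 32.7% of all windows held it at least once. The MYC E-box CACGTG, in 6.02% of all windows, occurred in 1 window each of Bbc3 and Bax, and the AP-1 site TGANTCA, in 6.75%, was not among the letters of the members' windows. Motifs were read on both strands, and they do not overlap the marked letters. These matches describe the letters of a window and say nothing of binding in these cells.

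Rras2 was checked first, as the targeted gene. Its log2 RMA signal was 10.67, 10.75 and 10.82 in the controls and 9.09, 9.69 and 9.21 on knockdown replicates 4, 5 and 6, so the groups did not overlap. It fell by 1.41 on the log2 scale (SE 0.14; limma adjusted p = 0.00163), and an exact two-sided permutation test gave p = 0.1, the smallest that 3 arrays against 3 allow. Replicate 5 kept the most Rras2 signal, 48.1% of the control mean, against 31.8% and 34.6% on replicates 4 and 6. It was also the knockdown array nearest the controls over all genes, with a score of 8.30 on the first principal component against 22.7 and 19.0 on replicates 4 and 6 and -21.1 to -12.9 in the controls. Over all genes, 5.21% passed an adjusted p of 0.05, 584 (2.99%) higher and 433 (2.22%) lower in the knockdown, which became 506 and 567 when arrays were centred on their medians. An unadjusted p under 0.05 was found for 19.1%, and the groups did not overlap for 25.5%. The arrays gave similar median gene signals, 7.22 to 7.28. No detection calls were at hand, and a log2 signal of 7.86, under which 95% of the negative-control probe sets fell, is used as the background limit. The immune (5 measured), epithelial (5) and endothelial (4) markers, Ptprc, Epcam and Pecam1 among them, all lay under that limit in both groups. Only 8258 of the 19505 genes had a mean above the limit, so a signal under it does not show absence. Of 10 fibroblast markers, 5 lay above it in both groups, 3 rose (Col3a1, Pdgfrb and, under the limit, Dcn) and 0 fell, while Fap and Lum were under the limit. Skeletal muscle markers moved with the knockdown: 10 of 14 rose and 0 fell, their summed linear signal was 1457 to 1740 in the controls and 5708 to 9977 in the knockdown, and replicate 5 had the 5708. The part of this shift in the results below was not tested.

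Of the 9 measured members, Bcl2l11 rose and Bcl2 fell in the knockdown, while 7 did not pass. This is 1 of 9 in each direction against the background shares of 2.99% and 2.22%, and with so few members a share says little. The groups did not overlap for 4 of the 9, against 25.5% of all genes, and 3 of the 9 had an unadjusted p under 0.05, against 19.1%. Because the members were chosen with earlier results of these data known, these shares are descriptions without a test. The measured folds were 1.34-fold down for Bcl2 and 1.35-fold up for Bcl2l11, whose control mean lay under the background limit, so that its fold is imprecise and can be understated. The median difference of the 9 members was 0.075 on the log2 scale, against -0.012 for all genes tested. By role, the 3 anti-apoptotic genes had differences from -0.42 to 0.11, Bak1 had 0.10, and the 5 BH3-only genes ranged from -0.09 to 0.43. In these bulk samples, a change in fewer cells and a change in RNA per cell cannot be told apart.

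**Figure D1:**
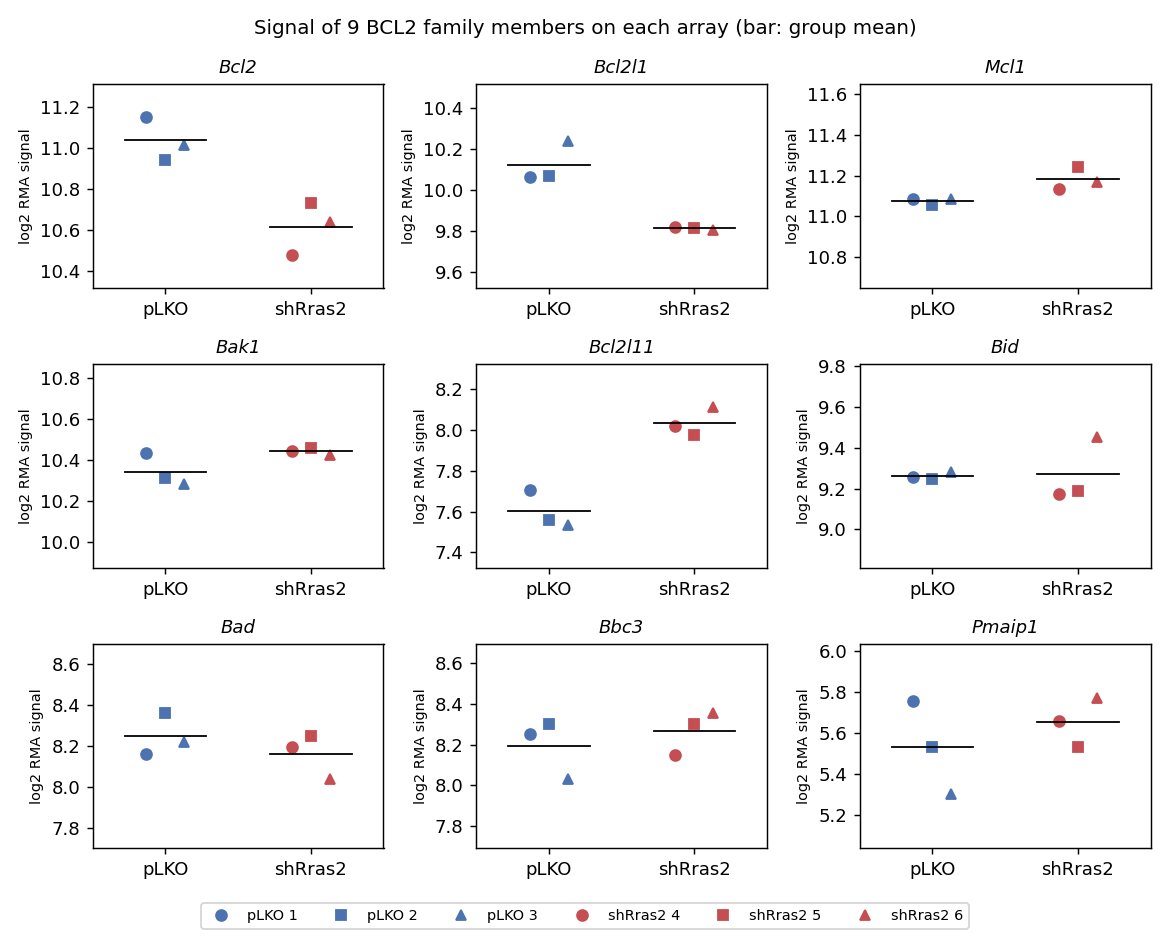
The log2 RMA signal of the 9 measured members is plotted for each of the 3 pLKO (blue) and 3 shRras2 arrays (red), with a bar at each group mean; every panel spans 1 log2 unit. The groups do not overlap for Bcl2, Bcl2l1, Mcl1 and Bcl2l11, and they overlap for the other 5 genes.

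Bcl2, the founding anti-apoptotic member, had log2 signals of 11.15, 10.94 and 11.02 on control replicates 1 to 3 and of 10.48, 10.73 and 10.64 on knockdown replicates 4 to 6. All 3 knockdown arrays lay below all 3 controls, with replicate 5 nearest to them. On the linear scale the knockdown arrays held 67.8%, 81.0% and 75.8% of the control mean. The fall was 0.42 on the log2 scale (SE 0.10; limma adjusted p = 0.0418), and its 95% interval ran from -0.64 to -0.20. The call was not stable: it was kept in 1 of the 6 fits that left out 1 array, that without knockdown replicate 5. The log2 difference stayed between -0.48 and -0.35 in these fits, and the limma adjusted p reached 0.147 without control replicate 1. Fits with fewer arrays also gave fewer calls over all genes, 392 to 589 in place of 1017, except that without knockdown replicate 5, with 1136. The probe set stands for 2 RefSeq transcripts, which are not told apart.

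Bcl2l1, whose long splice form BCL-XL protects and whose short form promotes death, had log2 signals of 10.07, 10.07 and 10.24 in the controls and 9.82, 9.81 and 9.80 in the knockdown. The knockdown arrays lay closely together, with an SD of 0.0085, and below every control. Its log2 difference of -0.31 (SE 0.08, 95% interval -0.49 to -0.13) did not pass, with a limma adjusted p of 0.064. It passed in 3 of the 7 other settings, with adjusted p = 0.0467 when arrays were centred on their medians, 0.0353 without the dimmest 30% of genes and 0.00969 with a trend and robust variance, and in 0 of the 6 fits without 1 array. The probe set covers 4 RefSeq transcripts, so the balance of the splice forms was not measured.

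Mcl1, a short-lived protector that many tumor cells rely on, went the other way in sign. Its signals were 11.09, 11.06 and 11.08 in the controls and 11.13, 11.24 and 11.17 in the knockdown, so that the groups did not overlap, as for 25.5% of all genes. Here replicate 5 lay farthest from the controls, at 112.0% of their mean against 104.1% and 106.7% on replicates 4 and 6. The difference was 0.11 (SE 0.07; limma adjusted p = 0.502) and did not pass. Its 95% interval, as a fold, was 0.957 to 1.21. Mcl1 also had the smallest control SD of the members, 0.016, while Pmaip1 had the largest, 0.23.

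**Figure D2:**
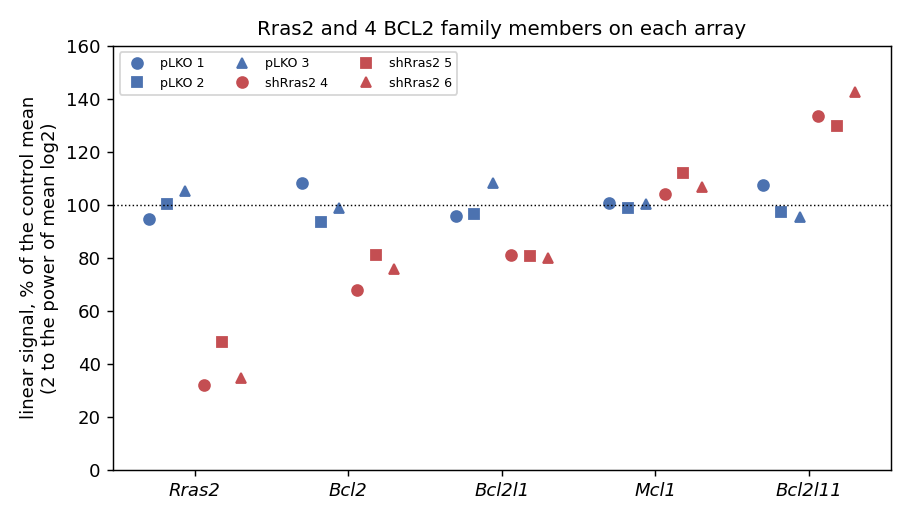
Linear signal on each array is shown as a percentage of the control mean for Rras2 and 4 members, with controls in blue and knockdown arrays in red. Rras2 lies at 31.8% to 48.1% on the knockdown arrays, Bcl2 at 67.8% to 81.0%, Bcl2l1 at 80.1% to 81.0%, Mcl1 at 104.1% to 112.0% and Bcl2l11 at 129.7% to 142.5%.

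Bak1 was the pore-forming gene measured among the listed members. It had signals of 10.43, 10.31 and 10.28 in the controls and 10.44, 10.46 and 10.42 in the knockdown. The groups overlapped, and the difference of 0.10 (SE 0.08; limma adjusted p = 0.547) did not pass, with a 95% interval of 0.948 to 1.21 as a fold.

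Bcl2l11 encodes BIM, the BH3-only protein that can bind all the protectors and activate BAX and BAK directly. Its signals were 7.71, 7.56 and 7.53 in the controls and 8.02, 7.98 and 8.11 in the knockdown, and every knockdown array lay above every control. On the linear scale, replicates 4, 5 and 6 stood at 133.5%, 129.7% and 142.5% of the control mean, lowest on replicate 5. The rise was 0.43 on the log2 scale (SE 0.08; 95% interval 0.24 to 0.62; limma adjusted p = 0.0222). The control mean of 7.60 lay under the background limit of 7.86 and the knockdown mean of 8.04 above it, so the size of the rise is imprecise and can be understated. The call was kept in 2 of the 6 fits without 1 array, those without control replicate 1 and without knockdown replicate 5, and the adjusted p was up to 0.0894, without knockdown replicate 6. BIM occurs in several splice forms, and the probe set covers 4 RefSeq transcripts together.

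Bbc3, which encodes the p53 and FOXO target PUMA, did not pass. Its signals were 8.25, 8.30 and 8.03 in the controls and 8.15, 8.30 and 8.35 in the knockdown. The groups overlapped, and the difference was 0.07 (SE 0.10; limma adjusted p = 0.755), with a 95% interval from -0.15 to 0.30. That the rise of Bcl2l11 differs from the value of Bbc3 was not tested.

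Bid, which caspase-8 cleaves to link death receptors to mitochondria, had signals of 9.26, 9.25 and 9.28 in the controls and 9.17, 9.19 and 9.45 in the knockdown. Replicate 6 alone lay above the controls, and replicates 4 and 5 below them. The difference was 0.0086 (SE 0.09; limma adjusted p = 0.977), and its sign turned to -0.082 without replicate 6 and to -0.032 when arrays were centred on their medians.

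Bad, which growth-factor kinases phosphorylate and which is then held by 14-3-3 proteins, had signals of 8.16, 8.36 and 8.22 in the controls and 8.20, 8.25 and 8.04 in the knockdown. The groups overlapped, and the difference was -0.09 (SE 0.09; limma adjusted p = 0.683). Pmaip1, whose product NOXA binds chiefly MCL1, had signals of 5.76, 5.53 and 5.31 in the controls and 5.66, 5.53 and 5.77 in the knockdown. All 6 values lay under the background limit, so its difference of 0.12 (SE 0.12; limma adjusted p = 0.66) says little about the transcript.

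**Figure D3:**
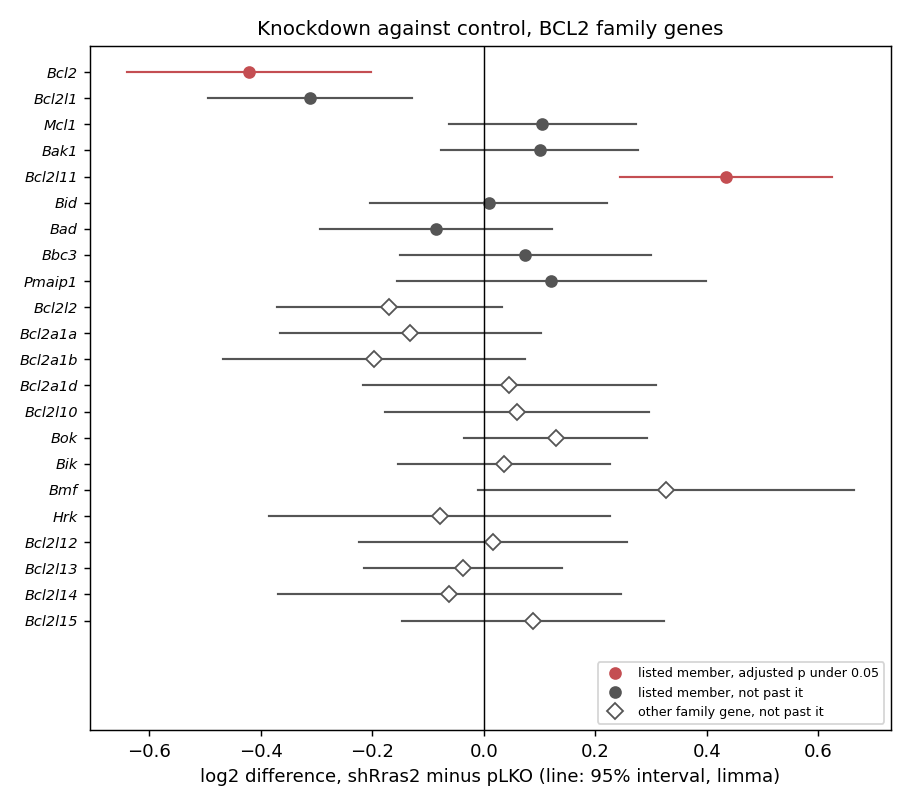
The log2 difference between shRras2 and pLKO is drawn with its 95% interval from limma for the 9 members (filled circles) and 13 other family genes (open diamonds); red marks an adjusted p under 0.05. Bcl2 at -0.42 and Bcl2l11 at 0.43 are the red points, and the interval of Bcl2l1 also leaves out 0.

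The remaining genes of the family, 13 in number and all measured, gave 0 calls in either direction with limma, and 0 had an unadjusted p under 0.05, against 19.1% of all genes. Their median difference was 0.017, with a range from -0.20 for Bcl2a1b to 0.33 for Bmf. Only 4 of them, Bcl2l2, Bok, Bik and Bcl2l13, had group means above the background limit. Bmf, a BH3-only gene whose product is tethered to the cytoskeleton, had signals of 6.93, 7.44 and 6.82 in the controls and 7.45, 7.37 and 7.35 in the knockdown. Control replicate 2 was level with the knockdown arrays, and the difference of 0.33 (SE 0.15) did not pass (limma adjusted p = 0.278). Without control replicate 2 it was 0.52 and passed with a limma adjusted p of 0.029, so whether Bmf passes depends on 1 array. Bcl2l2, which encodes the protector BCL-W, differed by -0.17 (SE 0.09; limma adjusted p = 0.353). Bok, a relative of BAX and BAK, differed by 0.13 (SE 0.07; limma adjusted p = 0.386). Neither passed. The groups of these 2 genes did not overlap, which is 2 of the 13 against 25.5% of all genes. Bcl2a1a, Bcl2a1b and Bcl2a1d are near-identical copies whose probes can share signal, and all 3 were at background.

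The proteins that bind or turn over BCL2 family members gave 2 falls and 0 rises among 24 measured genes, with 22 not past the threshold (median 0.0064). That share is to be read against the background of 5.21%. Both were among the 7 genes of the 14-3-3 family, adaptors that hold phosphorylated BAD away from mitochondria. Ywhag had signals of 11.86, 11.83 and 11.79 in the controls and 10.85, 11.15 and 11.07 in the knockdown, and fell by 0.80 on the log2 scale (SE 0.09; limma adjusted p = 0.00275). Replicate 5 was nearest the controls, and the fall passed in all 6 fits without 1 array, with an adjusted p up to 0.0161. Ywhaz fell from 13.08 ± 0.06 to 12.75 ± 0.05 (SD, n = 3 each), by 0.33 (limma adjusted p = 0.0449), and passed in 0 of those 6 fits, where the adjusted p reached 0.157. The other 14-3-3 genes had differences between 0.01 for Ywhae and 0.07 for Ywhaq and did not pass. The BH3-like mitophagy gene Bnip3 differed by -0.24 (limma adjusted p = 0.208). Fbxw7, part of a ligase that marks MCL1 for destruction, differed by 0.23 (adjusted p = 0.264), with both group means under the background limit. Huwe1, another MCL1 ligase, differed by -0.18 (adjusted p = 0.412).

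Downstream of the mitochondrion, 0 of 11 measured genes of the apoptosome, caspases and released factors passed with limma, against 5.21% of all genes, and 2 had an unadjusted p under 0.05, a share near the 19.1% of all genes (median difference -0.06). These were Cycs, which encodes cytochrome c, with -0.22 (SE 0.07, adjusted p = 0.144), and the protease gene Htra2 with -0.20 (SE 0.08, adjusted p = 0.21). Dffa, the inhibitor of the caspase-activated nuclease, differed by -0.19 (adjusted p = 0.267), and Apaf1 and Casp9, the core of the apoptosome, by 0.05 and 0.15. Of the 5 inhibitor of apoptosis genes 0 passed with limma and 2 had an unadjusted p under 0.05 (median 0.14), to be read against the same 5.21% and 19.1%. Birc3 and Birc2, which encode the cellular inhibitors cIAP2 and cIAP1, differed by 0.34 and 0.29 (adjusted p = 0.172 and 0.201), and Birc6 by 0.14 (adjusted p = 0.728). In the death receptor list 0 of 11 passed with limma and 1 had an unadjusted p under 0.05, which is below the 19.1% share of all genes (median -0.03). This was the adaptor gene Fadd with -0.23 (SE 0.09, adjusted p = 0.235). The receptor gene Fas differed by 0.27 (SE 0.15, adjusted p = 0.367) and Tradd by 0.10 (adjusted p = 0.576). The means of Dffa, Casp9, Birc2 and Fas lay under the background limit in both groups, as did the control mean of Birc3. Their differences are therefore imprecise.

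**Figure D4:**
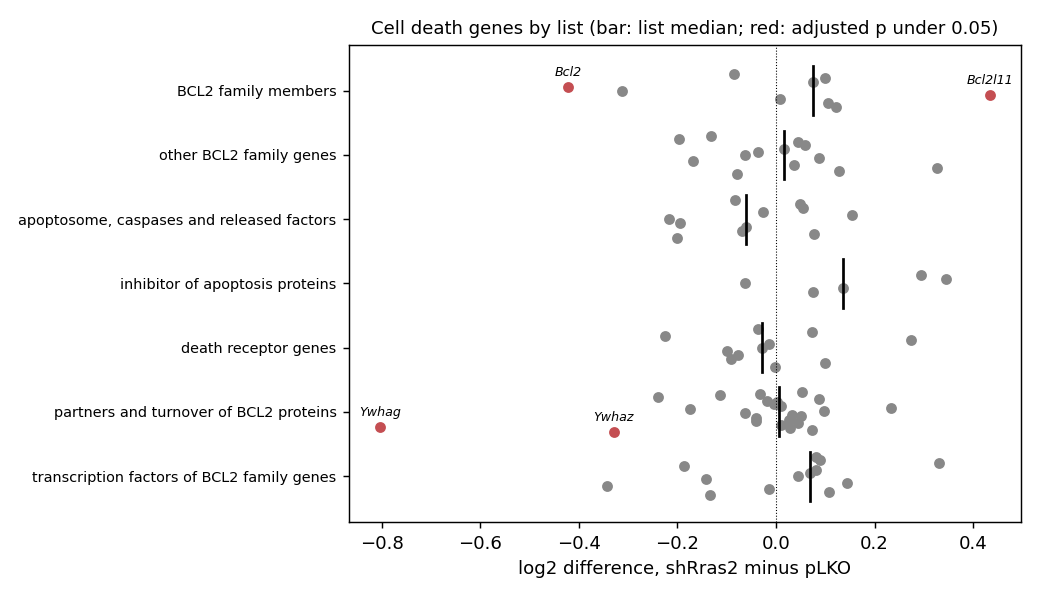
Each point is the log2 difference of 1 gene between shRras2 and pLKO, arranged by list, with a bar at the list median; red points have an adjusted p under 0.05 and are named. The red points are Bcl2 and Bcl2l11 among the members and Ywhag and Ywhaz among the partners, and the other 5 lists have 0.

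Among 13 measured transcription factors known to act on genes of the family, 0 passed with limma, against 5.21% of all genes, and 2 had an unadjusted p under 0.05, no more than the 19.1% share of all genes (median 0.07). Ddit3, the stress factor CHOP that is known to raise Bcl2l11 and lower Bcl2, differed by 0.33 (SE 0.09, limma adjusted p = 0.0874). Its groups did not overlap, as for 5 of the 13 factors and 25.5% of all genes. A second, dimmer probe set for Ddit3 gave 0.12 (SE 0.09), with adjusted p = 0.512 in a limma fit over the probe sets with 1 gene symbol. The 2 probe sets thus differ in size, and neither passed. Myc differed by -0.34 (SE 0.12, adjusted p = 0.161) and the cell cycle factor E2f1 by -0.19 (SE 0.10, adjusted p = 0.376). None of the FOXO genes passed, with differences of 0.08 for Foxo1, 0.07 for Foxo3 and 0.04 for Foxo4 and limma adjusted p-values from 0.666 to 0.839. Both group means of Foxo4 lay under the background limit. FOXO activity is set mostly by phosphorylation, which transcript levels do not show.

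The genes whose course over the 6 arrays was most like that of the changed members were sought among 8090 named genes with a mean above the background limit. Likeness was the root mean square difference between the 2 genes' deviations from their own means. The 3 nearest to Bcl2l11 were Cdc42ep3 (0.028), Jdp2 (0.030) and Plpp1 (0.036), each with a log2 difference of 0.42. Those nearest to Bcl2 were Immp1l (0.030), Dcbld1 (0.031) and Mast4 (0.037), with differences of -0.38, -0.43 and -0.37. The choice by likeness fixes these directions and sizes, so they are descriptions without a test.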

How the data were processed

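Trizol-isolated total RNA of 6 cell samples was labelled with biotin, per the labels, and read on 1 Affymetrix array each. The authors deposited log2 signals, 1 for each probe set; the submitters' processing notes name RMA and R 3.6.3. RMA subtracts background, equalizes the arrays' distributions and combines the probes of a set. Its package version is not given in the sources used here. The number of arrays limits the precision.

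Of 29129 probe sets, 19572 had 1 gene symbol in the platform annotation. The brightest probe set was kept for 55 genes with several, which left 19505 genes. Knockdown and control were compared in R 4.3.3 by limma 3.58.1, using its functions lmFit and eBayes (two-sided, without covariates). P-values were adjusted over all genes by Benjamini-Hochberg, with a threshold of 0.05. In simulated data with known log2 differences, the procedure called 32 of 71 genes at 0.5, 63 of 70 at 1 and 58 of 59 at 2. It called 4 of 19305 genes without a difference. Genes that did not pass can therefore still differ. Differences are knockdown minus control. Of 134 gene list entries 124 were measured. The named genes are the members, Rras2, the genes past the threshold in the 6 other cell death lists, up to 3 per such list with the lowest p among the rest, and the 3 genes most like each changed member. Others (Apaf1, Casp9, the FOXO and remaining 14-3-3 genes, the Bcl2a1 genes, Bik, Bcl2l13 and all named cell type markers) were named after their values were seen. The members and lists were chosen with earlier results of these data known. The alternatives were repeated quantile normalization, median centring, cyclic loess, a filter on the dimmest 30% of genes, averaged probe sets, a trend and robust variance, array weights, and leaving out each array.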

Additional observations from a re-analysis of the deposited data

How the results depend on the processing

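Rras2 fell in all 13 alternatives (log2 difference -1.59 to -1.29 without 1 array). The fall of Bcl2 and the rise of Bcl2l11 kept their direction in every alternative and passed in all 7 that used 6 arrays. Members passing numbered 2 without knockdown replicate 5, 1 without control replicate 1 and 0 without any other array (Bcl2 from -0.48 to -0.35, Bcl2l11 from 0.40 to 0.49). Bbc3 turned to -0.0067 without control replicate 3 (-0.0067 to 0.13 without 1 array), and Bid to -0.032 with median centring and to -0.082 without knockdown replicate 6 (-0.082 to 0.058 without 1 array). Bcl2l1 passed in 3 alternatives, as given above. The filter on dim genes left out Pmaip1. A trend and robust variance gave 1908 calls among all genes in place of 1017, and 1 among the apoptosome genes (Cycs) and 2 among the transcription factors (Ddit3 and Myc) in place of 0. All genes gave 463, 589 and 427 calls when control replicate 1, 2 or 3 was left out, and 392, 1136 and 431 when knockdown replicate 4, 5 or 6 was. The other family genes gave 0 to 1, the 1 being Bmf without control replicate 2. The partner list had 1 call in place of 2 with cyclic loess and 1 in each fit without 1 array, Ywhag each time. No paired analysis was possible because the groups share no replicate number. Signals near the negative controls limit what Pmaip1, the Bcl2a1 genes and, in the controls, Bcl2l11 can show. The same limit holds for Bmf, Birc2, Fas, Casp9, Dffa, Fbxw7 and Foxo4 and, in the controls, for Birc3.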
